A study of Solanum tuberosum with 12 samples.

Results

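The tuber small RNAs described here are the long entries of the potato-specific number range miR7979 to miR8051, excluding miR8006. An entry was included when its name carried a number of that range, either with the potato prefix stu- or with the ending -x or -y, and when its sequence was 23 nt or longer. The rule used names and lengths and no expression value. It found 116 entries, which hold 102 distinct sequences of the 5730 distinct sequences in the deposited table. Of the 102 members, 65 carry a potato name and 37 an -x or -y name, 85 are 24 nt long and 17 are 23 nt long, and 49 numbers of the range are represented.

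The study sequenced small RNAs of 18 to 30 nt in tubers of 4 cultivars of potato (Solanum tuberosum), LK99, Black kingkong, Longshu No.7 and Red beauty, with 3 libraries for each cultivar. Tubers were 150 days old, and all cultivars were grown at 1 field site under the same conditions with no treatment. The study concerns miRNAs and anthocyanin synthesis, and the cultivars differ from each other in their whole genetic background. Whether libraries of the same cultivar came from separate plants is not stated in the labels, so p-values measure the spread between libraries, which may be technical.

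In plants, most canonical miRNAs are shorter than these sequences and are cut from a hairpin by DICER-LIKE 1. Small RNAs of the length seen here are typically made by DICER-LIKE 3, are loaded into the ARGONAUTE 4 group, which favours a 5′ adenine, and guide RNA-directed DNA methylation, often at transposons and repeats. Some annotated plant miRNAs of this length come from hairpins of inverted repeats and are processed in the same way. No target or role of an individual member is given in the sources used here.

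The sequences that carry the results are printed first, 5′ to 3′ as deposited, with T for U, and with the seed (bases 2 to 8) in capitals. The first 6 are the most abundant -x and -y members beside the potato-named sequences they match, to show how they differ.
miR7980-x: cCAAACGCtgattccatctcacga
stu-miR7980b-5p: gTCCAAACactgattccatctcat
miR7980-y: gAGATGGAatcaacgtttggacat
stu-miR7980b-3p: gAGATGGAatcagtgtttggacat
miR8021-x: aTTCAAGAttcaaactcgagacct
stu-miR8021: aTTCAAGGctcaaactcgagacct
The next set holds the members that differed between cultivars, each followed where one is compared with it by its near match or its opposite arm.
stu-miR7992-5p: tTTGACAAtgcacatctagacact
stu-miR7997c: aTATTGCTcggactcttcaaaaat
miR8023-y: tCTGGCACaatttcattggcacc
stu-miR8023: tTTGGCACaatttcattggcaacc
stu-miR8011a-3p: aATAAAAAgaagcctcacacaact
stu-miR8011a-5p: tTGTGTGAggtttctttttgtttc
stu-miR8025-5p: aCATACTCgacatgcaattaaatt
miR8019-y: aCAAAGAGtgacctggtttgact
stu-miR8019-3p: aAAAGAATgacctggtttgacttg
miR8024-y: tTGGAGGAtttgaaaacttcaact
stu-miR8024a-3p: tTGGAGGAtttgaagatttcaact
The last set completes the abundant members and adds a pair of sparsely counted members that had 0 counts in at least 1 whole cultivar.
miR7984-x: gATATCAAactttatggaggacct
stu-miR7984c-5p: aCGATACCaaactttatgaaggac
stu-miR7987: aCACTAGTtgatcttattgatgac
stu-miR8005a: tTTAGAGTttaaggtttagagttt

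An adenine opened 53 of the 102 members (52.0%) and a T opened 29.4%. Weighted by counts, the share with a 5′ adenine was 34.0%, since the abundant members miR7980-x, miR7980-y and miR7984-x begin with C or G. Among the 75 sequences of the same number range that are 22 nt or shorter, 33.3% began with A and 46.7% with T. Among the 1676 sequences of 23 nt or longer that the table lists as predicted, 25.2% began with A and 40.9% with T. The median GC content of the members was 37.5%, against 38.1% for the shorter sequences of the range and 39.1% for the predicted long ones. These are shares of distinct sequences and were not tested.

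Counts were concentrated in a few members. The 102 members held 21384 counts over the 12 libraries, of which the 5 most abundant held 53.1% and the 10 most abundant 70.2%. The median member had 31 counts in total, 41 members were counted in all 12 libraries, 32 had fewer than 10 counts and 8 had a single count. The 65 potato-named members together held 25.4% of the counts, with a median of 18 counts, while the 37 -x and -y members had a median of 108 counts.

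Most -x and -y members were near copies of a potato-named member. Of the 37, 31 aligned on the same strand with a potato-named member of the same number, giving 32 pairs. In 27 of these pairs the sequences differed at 2 bases, in 4 pairs at 1 base and in 1 pair at none, where the ends were shifted. The -x or -y sequence had more counts than the potato-named one in 24 of the 32 pairs, and the median ratio of their counts was 7.67. Whether a count of an -x or -y entry sums several reads of slightly different sequence is not given in the sources used here. The rules behind the -x and -y names are not given either, so whether the names themselves rest on this likeness is not known.

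Whether a pair kept its seed depended on the positions of the differing bases and on whether the starts of the sequences were shifted. Positions are counted from the 5′ end of the potato-named sequence, whose base is given first. Between stu-miR8021 (87 counts) and miR8021-x (2239 counts) the differences were G8A and C9T, so the seeds differ at their last base. Between stu-miR7980b-3p (581 counts) and miR7980-y (2565 counts) they were G13A and T14C, and the seed is shared. The variant miR7980-x (3086 counts) starts 2 bases further in than stu-miR7980b-5p (38 counts) and differs at A9G and T24C, so the seeds are not the same. This pair had the widest count ratio of the 32 pairs, 81.2. In the other direction, stu-miR7994a had 437 counts against 197 for miR7994-y, stu-miR8024a-3p had 190 against 112 for miR8024-y, and stu-miR8025-5p had 132 against 13 for miR8025-x. Exactly 7 seeds were shared, each by 2 members, a potato-named and an -x or -y sequence. Outside the rule, 6 members shared a run of 18 or more bases with another entry of the table, among them miR7980-x with a predicted sequence of 179 counts.

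**Figure D1:**
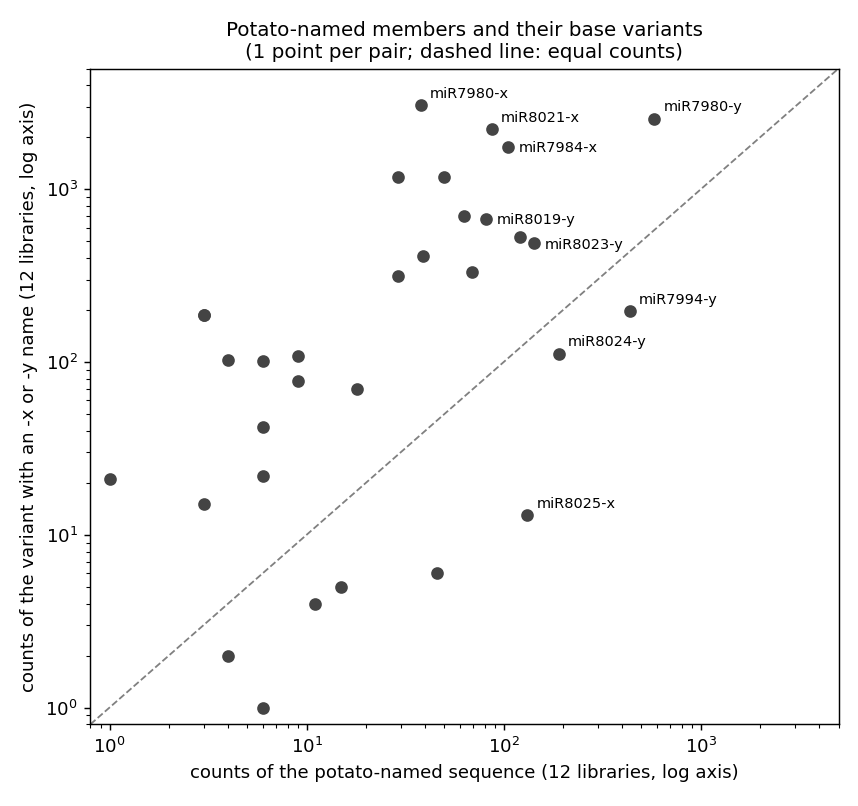
Counts of each potato-named member (horizontal, log axis) and of the -x or -y member of the same number aligned to it on the same strand (vertical, log axis), summed over 12 libraries, 1 point for each of 32 pairs, with a dashed line at equal counts. In 24 pairs the point lies above the line, with miR7980-x, miR8021-x and miR7984-x far above it, while miR7994-y, miR8024-y and miR8025-x lie below it.

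Several members were opposite strands of the same duplex. The list holds both arms, 5p and 3p, of 13 potato-named miRNAs. By the alignment criterion used, 10 of these 13 pairs aligned as reverse complements, and stu-miR7981, stu-miR8007a and stu-miR8014 did not. In 9 of the 10 the alignment ran over 22 bases with 2 unpaired bases at each 3′ end, the shape that a Dicer cut is known to leave. In 3 of these, stu-miR7980b, stu-miR7984c and stu-miR7984d, all 22 bases paired. Wobble pairs were not counted, and no hairpin was examined. The counts of the arms were unequal to varying degrees. The 3p arm of stu-miR7980b had 581 counts and the 5p arm 38, the 5p arm of stu-miR8025 had 132 and the 3p arm 7, and the 5p arm of stu-miR7992 had 1701 and the 3p arm 2. The arms were closer in stu-miR7984d (28 counts for 5p, 63 for 3p), stu-miR8011a (23 and 54) and stu-miR8002 (4 and 9). The most abundant member, miR7980-x, paired at 19 of 20 bases with the second most abundant, miR7980-y, and their counts were close, at 3086 and 2565. Their alignment left 4 unpaired bases at each 3′ end, so it lacked the 2-base ends described above.

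Total counts per library ran from 5605168 to 7354483. A single entry, miR166-y, took 86.1% to 92.0% of them, and the long members took 152 to 367 counts per 1e6. Levels below are counts per 1e6 (CPM) after trimmed-mean (TMM) scaling. At this depth 34 of the 102 members passed the count filter and were tested. They hold 93.0% of the members' counts, and 14 of them carry a potato name. The 68 untested members had between 1 and 108 counts each.

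Libraries of a cultivar did not carry these RNAs evenly. The summed level of all 102 members was 328, 321 and 246 CPM in the 3 Black kingkong libraries, 248, 222 and 240 in LK99, 314, 318 and 257 in Red beauty, and 305, 291 and 192 in Longshu No.7. Replicate 3 was the lowest in every cultivar except LK99. It was the lowest library of its cultivar for 25 of the 34 tested members in Black kingkong, for 24 in Red beauty and for 23 in Longshu No.7, where over all tested entries the shares were 32.8%, 28.8% and 43.3%. The predicted sequences of 23 nt or longer were also lowest in these 3 libraries, at 951, 945 and 836 CPM. The shorter members of the range were not lowest there in Black kingkong (682 CPM) or Red beauty (508 CPM). The part of this library difference in the results was not tested, and counts of differing members are therefore given with and without these 3 libraries.

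**Figure D2:**
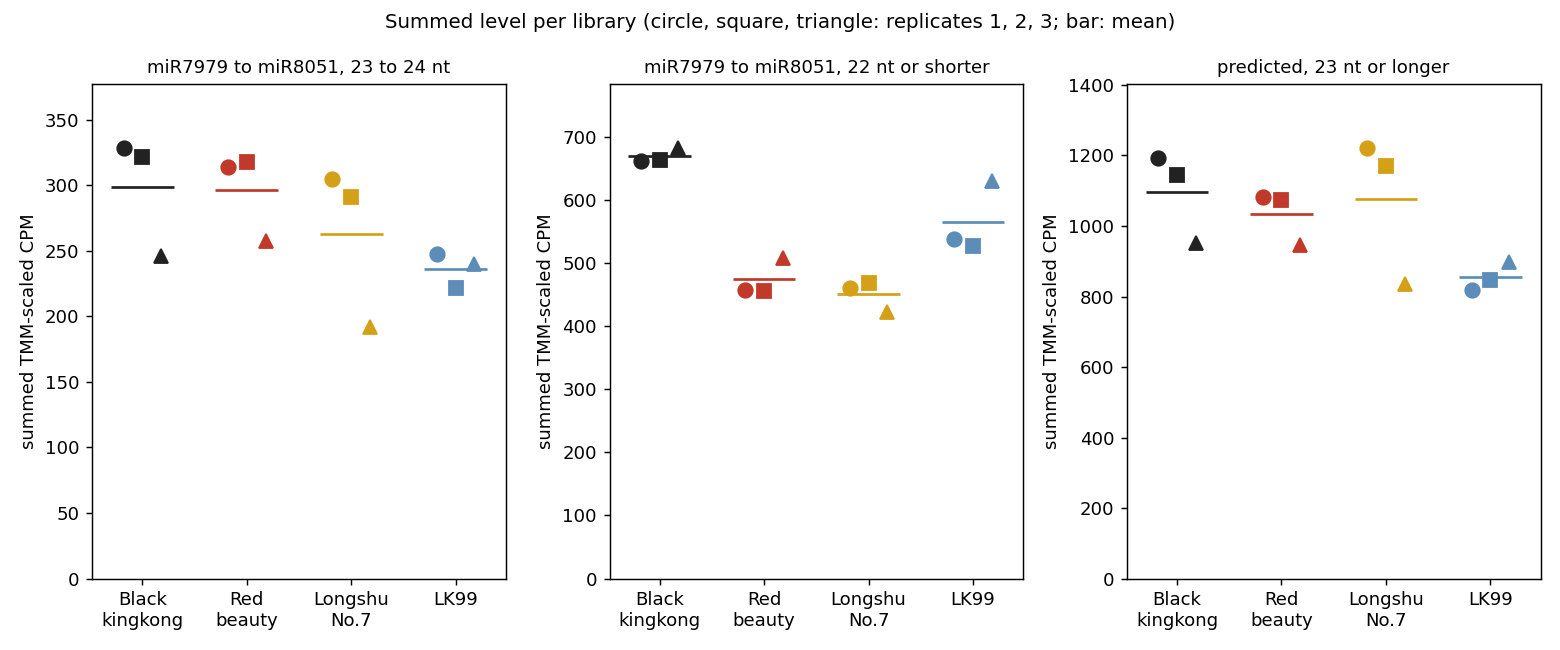
Summed TMM-scaled CPM per library, on axes from 0, for the 102 long members (left), the shorter sequences of the same number range (middle) and the predicted sequences of 23 nt or longer (right). Symbols mark replicates 1, 2 and 3 and bars the mean of 3 libraries. Replicate 3 lies lowest in Black kingkong, Red beauty and Longshu No.7 for both long classes (246, 257 and 192 CPM for the members).

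The mean summed level was 299 ± 45.8 CPM in Black kingkong, 237 ± 13.5 in LK99, 296 ± 33.9 in Red beauty and 263 ± 61.7 in Longshu No.7 (SD, n = 3 each). The libraries of Longshu No.7 overlap those of every other cultivar. The Red beauty libraries all lie above those of LK99, whose highest library (248) lies just above the lowest Black kingkong one (246). In whole tubers, fewer cells that carry an RNA and less of it per cell cannot be told apart. The order of the cultivars depends on the scaling. Per 1e6 deposited counts, with no TMM factor, the 3 LK99 libraries held 340, 261 and 282 member counts, within the range of Black kingkong (213 to 367).

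The same dependence is seen in single members. Relative to LK99, the median log2 fold change of the 34 tested members was 0.28 in Black kingkong with TMM and −0.05 with library sizes alone, 0.32 and −0.18 in Red beauty, and 0.10 and −0.23 in Longshu No.7. Over all tested entries that change of scaling moved the median in Black kingkong from −0.06 to −0.39, so the members' median lay 0.34 above that of all entries either way. This offset was not particular to the members. For Black kingkong against LK99 with TMM, the tested predicted sequences of 23 nt or longer had a median of 0.40. In a fit restricted to entries of 23 nt or longer, the members' median minus that of all entries was −0.17.

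Few long members passed a test for a difference between cultivars. In edgeR's quasi-likelihood F-test for any difference among the 4 cultivars, with Benjamini-Hochberg adjustment over all 1349 tested entries at 0.05, 58.9% of all entries passed and 6 of the 34 tested members (17.6%) did. These were stu-miR7997c, stu-miR7992-5p, stu-miR8011a-3p, miR8023-y, stu-miR8025-5p and stu-miR8023. Of these, stu-miR7997c met the count filter through the Longshu No.7 libraries (47, 32 and 22 counts, 10 or fewer in any other library). For stu-miR8023 it was the LK99 libraries (33, 15 and 33 counts) and Black kingkong replicate 1 (19). For stu-miR8011a-3p it was LK99 replicates 1 and 3 (15 and 18) and Longshu No.7 replicate 1 (12). They were thus tested through libraries where they were high, which the p-values do not allow for. Of the tested shorter sequences of the range 11 of 27 passed, and of the tested predicted long sequences 72 of 182. The cultivar means of a tested member spanned 0.86 on the log2 scale (median of the highest minus the lowest), against 1.81 for all tested entries, 1.01 for the tested shorter sequences of the range and 1.29 for the tested predicted long ones. The median of the mean levels was 2.78 CPM for the tested members and 2.35 for all tested entries. The difference between the members and other entries was not itself tested. Without replicate 3 of Black kingkong, Red beauty and Longshu No.7, 12 members passed (57.5% of all entries in that fit), 5 of them among the 6, and stu-miR8025-5p missed the threshold at an adjusted p of 0.0747. Leaving out Longshu No.7 replicate 3 alone gave 10 members (66.2% of all entries), among them all 6.

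**Figure D3:**
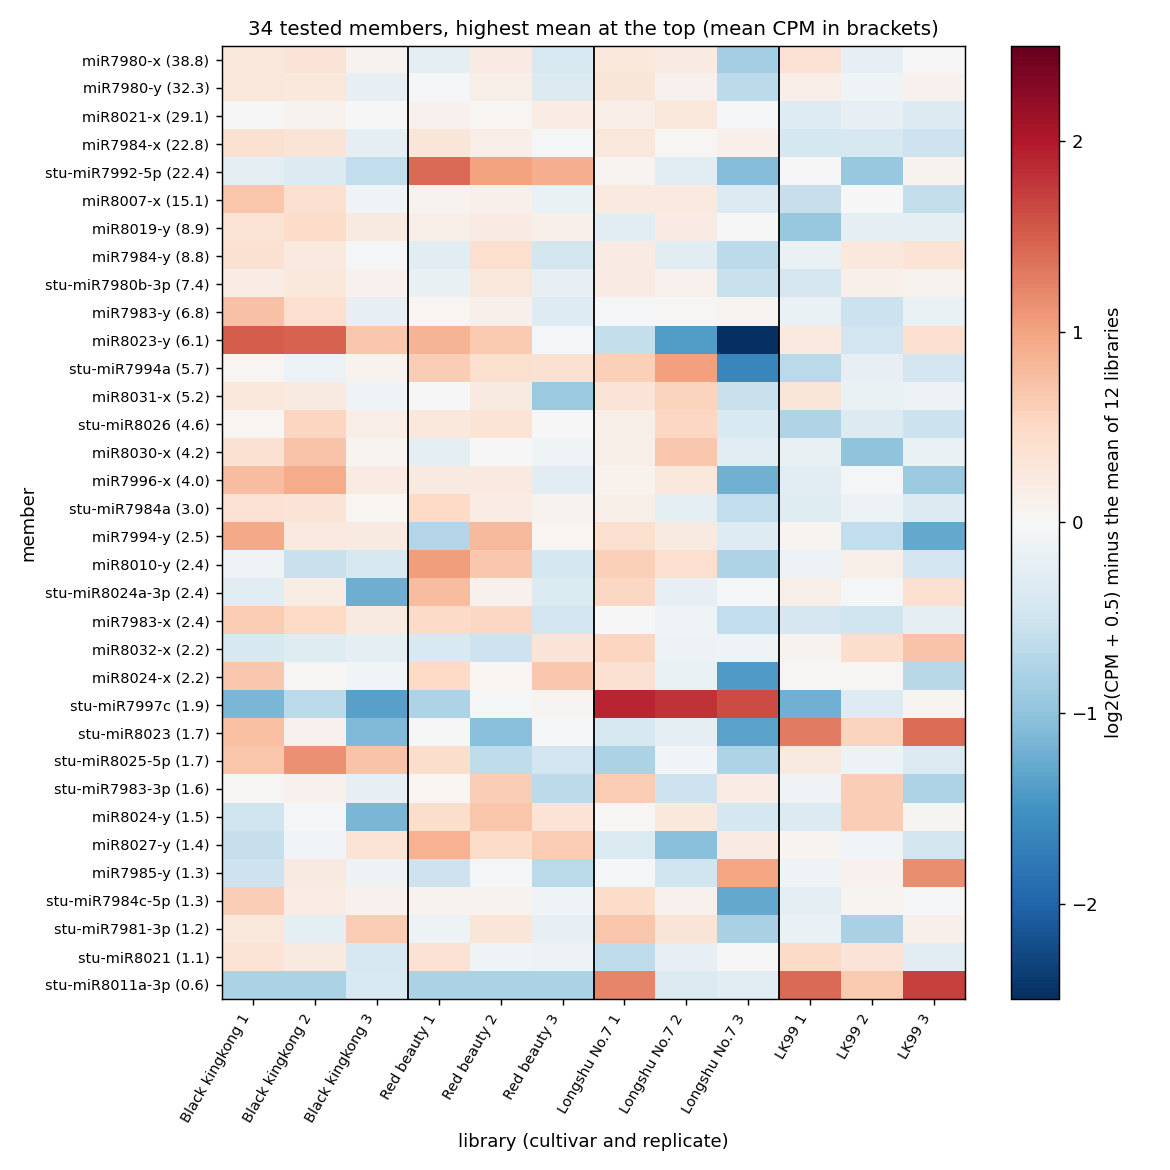
Level of the 34 tested members (rows, highest mean CPM at the top, mean in brackets) in the 12 libraries (columns), as log2(CPM + 0.5) minus the member's mean over the libraries, with the colour scale limited to ± 2.5. Most rows are pale, the rows of stu-miR7992-5p, miR8023-y, stu-miR7997c, stu-miR8023 and stu-miR8011a-3p change between cultivars, and the column of Longshu No.7 replicate 3 is blue for most members.

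The lowest adjusted p was that of stu-miR7997c, which was high in Longshu No.7. Its level was 5.94, 5.52 and 4.77 CPM in the Longshu No.7 libraries, 0.270, 0.588 and 0.171 in Black kingkong, 0.503, 1.14 and 1.29 in Red beauty, and 0.242, 0.874 and 1.30 in LK99. Every Longshu No.7 library lay above every other library. The level in Longshu No.7 was 14.8-fold that in Black kingkong (log2 fold change of Black kingkong against Longshu No.7 −3.89, SE 0.56, adjusted p = 0.000237). It was 5.51-fold that in Red beauty (−2.46 for Red beauty against Longshu No.7, SE 0.50, adjusted p = 0.00271) and 6.68-fold that in LK99 (2.74 for Longshu No.7 against LK99, SE 0.49, adjusted p = 0.0015). The other 3 cultivars held 7, 16 and 18 counts in all, so their own order rests on few counts. These 3 calls held when any single library was left out.

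Red beauty stood out in stu-miR7992-5p, the most abundant potato-named member. It measured 52.5, 39.7 and 37.1 CPM in the Red beauty libraries, 16.2, 15.3 and 12.5 in Black kingkong, 20.5, 15.9 and 8.89 in Longshu No.7, and 19.6, 9.76 and 20.6 in LK99. The lowest Red beauty library lay above the highest library of every other cultivar, and the other 3 cultivars overlap. The level in Red beauty was 2.93-fold that in Black kingkong (log2 fold change of Black kingkong against Red beauty −1.55, SE 0.36, adjusted p = 0.00394). It was 2.84-fold that in Longshu No.7 (1.51, SE 0.36, adjusted p = 0.0087) and 2.59-fold that in LK99 (1.37, SE 0.36, adjusted p = 0.0101). With library sizes alone in place of TMM the last of these log2 fold changes was 0.85 (adjusted p = 0.15).

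Both forms of miR8023 differed between cultivars, with different orders. The variant miR8023-y measured 13.6, 13.2 and 7.36 CPM in Black kingkong, 5.32, 3.06 and 5.99 in LK99, 8.39, 7.25 and 4.24 in Red beauty, and 2.78, 1.38 and 0 in Longshu No.7. All Longshu No.7 libraries lay below all libraries of the other cultivars. It was 7.57-fold higher in Black kingkong than in Longshu No.7 (log2 fold change 2.92, SE 0.66, adjusted p = 0.00458) and 4.40-fold higher in Red beauty than in Longshu No.7 (2.14, SE 0.66, adjusted p = 0.0309). The second of these calls missed the threshold without Red beauty replicate 1 (adjusted p = 0.10), without Red beauty replicate 2 (0.082) or without Longshu No.7 replicate 2 (0.085). It also missed it with library sizes alone (log2 fold change 1.95, adjusted p = 0.071) and in the fit of these cultivars alone (0.068).

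The potato-named form, stu-miR8023, was highest in LK99. It measured 3.99, 2.19 and 4.30 CPM there, 2.57, 1.47 and 0.343 in Black kingkong, 1.34, 0.382 and 1.29 in Red beauty, and 0.885, 1.03 and 0.217 in Longshu No.7. The LK99 libraries lay above those of Red beauty and Longshu No.7 and overlap those of Black kingkong. The level in LK99 was 3.41-fold that in Red beauty (log2 fold change of Red beauty against LK99 −1.77, SE 0.61, adjusted p = 0.039) and 4.60-fold that in Longshu No.7 (−2.20, SE 0.63, adjusted p = 0.0265). Across the leave-one-out fits these adjusted p-values reached 0.14 (without Red beauty replicate 2) and 0.081 (without LK99 replicate 1). The test for any difference gave 0.0953 without LK99 replicate 1 and 0.0666 without LK99 replicate 3.

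The forms differ at T2C and A22C and therefore have different seeds. Of the counts of both forms, the potato-named one made up 15.8%, 10.0% and 4.44% in the Black kingkong libraries and 13.8%, 5.0% and 23.3% in Red beauty. In LK99 it made up 42.9%, 41.7% and 41.8%, with exact binomial 95% intervals of 31.6% to 54.6%, 25.5% to 59.2% and 30.8% to 53.4%. All 3 LK99 libraries lay above all 6 libraries of Black kingkong and Red beauty. In the Longshu No.7 libraries the potato-named form made up 24.1%, 42.9% and 100%, the last from a single count, so replicate 2 equalled the highest LK99 share. The 3 Longshu No.7 libraries together held 14 counts of the potato-named form and 30 of the variant, a share of 31.8%. This share was chosen for description after its values were seen and was not tested.

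Both arms of miR8011a had few or no counts in Black kingkong and Red beauty. The 3p arm, stu-miR8011a-3p, had 15, 6 and 18 counts in the LK99 libraries, 12, 1 and 1 in Longshu No.7, 0, 0 and 1 in Black kingkong, and 0, 0 and 0 in Red beauty. The LK99 libraries lay above all those of Black kingkong and Red beauty, while Longshu No.7 replicate 1 lay within the LK99 range and its other libraries near 0. Against a floor of 3 counts over the 3 libraries of a cultivar, its level in LK99 was at least 9.47-fold higher than in Red beauty (adjusted p = 0.00573), and in Longshu No.7 at least 4.23-fold higher (adjusted p = 0.0428). Such bounds take the higher count as exact and leave out the spread between libraries. From 39 counts against 1, the LK99 level was 34.3-fold that in Black kingkong, with an exact binomial 95% interval of 5.80 to 1388 that covers counting error only (adjusted p = 0.0101). The call between Red beauty and Longshu No.7 missed the threshold in 9 of 12 leave-one-out fits, with an adjusted p of 0.20 without Longshu No.7 replicate 1, and at 0.071 without the 3 replicate 3 libraries.

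The 5p arm, stu-miR8011a-5p, pairs with the 3p arm at 20 of 22 bases. Its 23 counts were too few for the filter. It had 8, 3 and 3 counts in LK99, 3, 1 and 2 in Longshu No.7, 1, 0 and 2 in Black kingkong and 0 in all 3 Red beauty libraries, so both arms had 0 counts in Red beauty. Its level in LK99 was at least 3.40-fold higher than in Red beauty by the same floor, and 4.10-fold that in Black kingkong from 14 counts against 3 (95% interval 1.14 to 22.3). In the fit with no count filter its difference between Red beauty and LK99 had an adjusted p of 0.016.

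The remaining called members were stu-miR8025-5p, miR8019-y and miR8024-y, of which only stu-miR8025-5p passed the test for any difference. Black kingkong was high in stu-miR8025-5p, with 2.70, 3.82 and 2.74 CPM against 2.18, 0.763 and 0.922 in Red beauty, 0.632, 1.38 and 0.650 in Longshu No.7, and 1.81, 1.31 and 1.04 in LK99. Its Black kingkong libraries lay above all others, but per 1e6 deposited counts, with no TMM factor, LK99 replicate 1 (2.49) lay above Black kingkong replicate 3 (2.38). The level was 3.45-fold that in Longshu No.7 (log2 fold change 1.79, SE 0.47, adjusted p = 0.0108) and 2.34-fold that in Red beauty (1.23, SE 0.45, adjusted p = 0.0425). Without Longshu No.7 replicate 1 the first gave an adjusted p of 0.051. The second missed the threshold in 6 of the 12 leave-one-out fits, with DESeq2 (0.08) and without the 3 replicate 3 libraries (0.15). Without Black kingkong replicate 2 the test for any difference gave 0.104.

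Among the abundant variants, miR8019-y measured 11.1, 12.0 and 10.1 CPM in Black kingkong, 4.23, 7.14 and 7.16 in LK99, 9.56, 9.92 and 9.41 in Red beauty, and 6.95, 10.0 and 8.67 in Longshu No.7. Black kingkong and LK99 do not overlap, and the level was 1.79-fold higher in Black kingkong (log2 fold change 0.84 with an SE of 0.30 and an adjusted p of 0.0453). This call was lost in 10 of 12 leave-one-out fits, where the adjusted p reached 0.17, and with library sizes alone (log2 fold change 0.53, adjusted p = 0.21). The potato-named stu-miR8019-3p, which differs at A1C and A7G, was not tested and had 12, 10 and 8 counts in Black kingkong, 5, 0 and 1 in LK99, 7, 3 and 12 in Red beauty, and 11, 6 and 6 in Longshu No.7. In the fit with no count filter its difference between Black kingkong and LK99 had an adjusted p of 0.02, and, as for miR8019-y, its mean level was lowest in LK99.

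The scarce variant miR8024-y was low in Black kingkong, at 0.811, 1.32 and 0.343 CPM, against 2.01, 2.48 and 1.84 in Red beauty, 1.39, 1.72 and 0.867 in Longshu No.7, and 0.967, 2.33 and 1.43 in LK99. Black kingkong and Red beauty do not overlap, with a 2.48-fold higher level in Red beauty (log2 fold change of Black kingkong against Red beauty −1.31, SE 0.50, adjusted p = 0.0498). The call was lost in 8 of 12 leave-one-out fits, where the adjusted p reached 0.16, with DESeq2 (0.12) and without the 3 replicate 3 libraries (0.15).

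**Figure D4:**
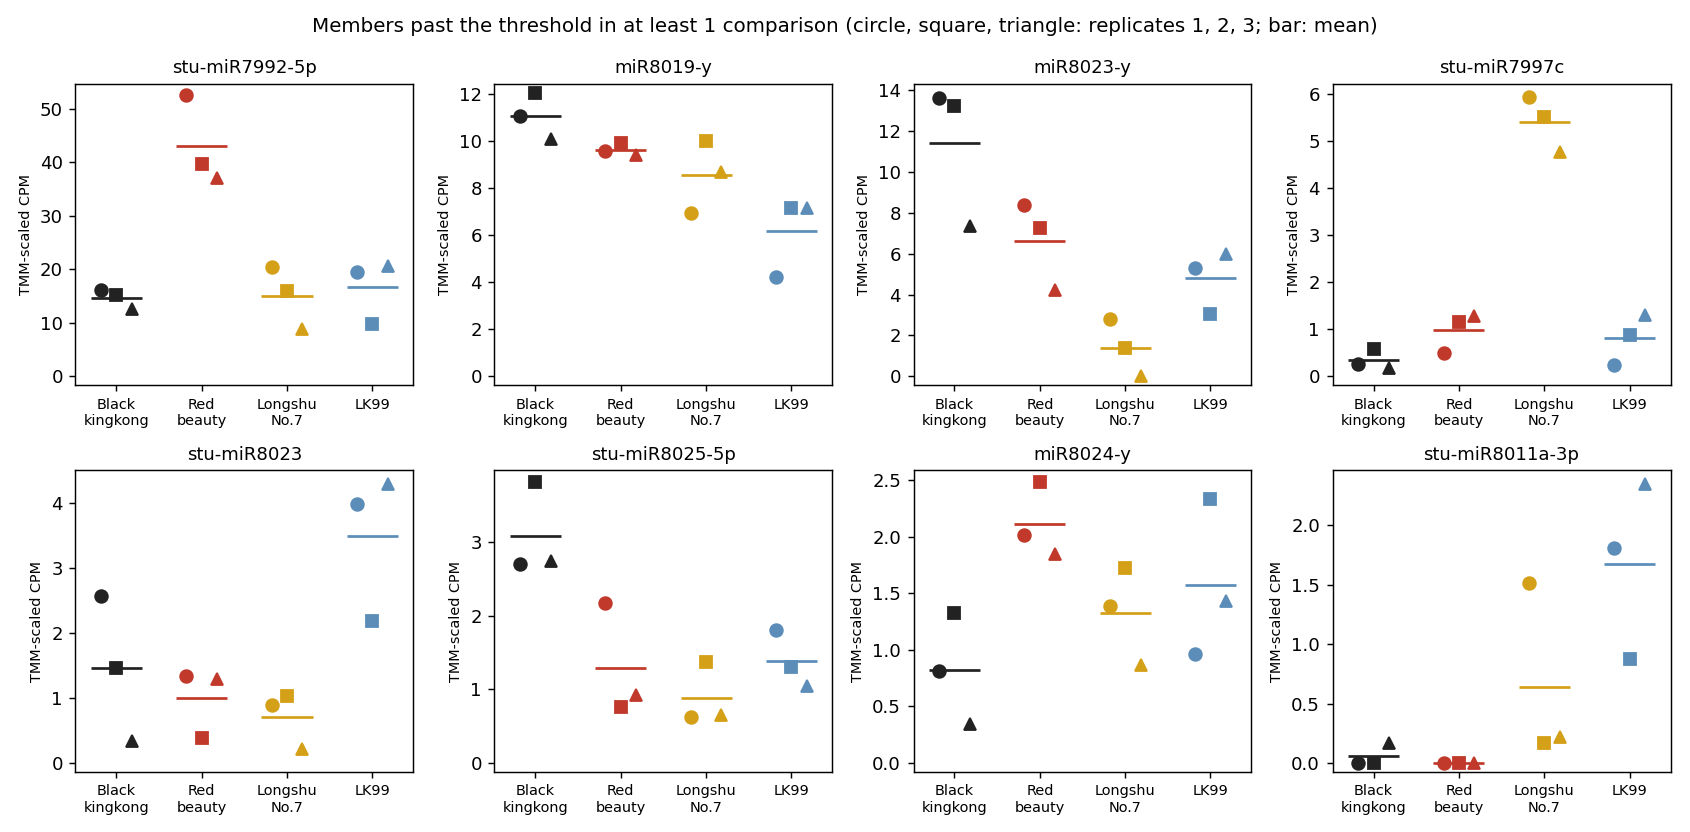
TMM-scaled CPM of the 8 members past the threshold in at least 1 comparison, by cultivar, on linear axes. Circles, squares and triangles are replicates 1, 2 and 3 and bars the mean of 3 libraries. The Longshu No.7 libraries of stu-miR7997c (5.94, 5.52 and 4.77 CPM) and the Red beauty libraries of stu-miR7992-5p (52.5, 39.7 and 37.1 CPM) stand apart from all others.

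By pair of cultivars, the share of the 34 tested members that passed was below that of all entries. It was not always below that of the most similar lists. Between Black kingkong and LK99 5.88% of the members passed, 3.7% of the shorter sequences of the range and 29.1% of the predicted long ones. Between Red beauty and Longshu No.7 these shares were 11.8%, 25.9% and 9.89%. In the remaining pairs both lists had a higher share than the members. These differences were not tested. Between Black kingkong and LK99, where 31.2% of all entries passed, 2 members did, 1 higher in Black kingkong (12.5% of all entries) and 1 lower (18.8%). Between Red beauty and LK99 (33.5% of all entries) 3 members passed, with 1 higher in Red beauty (14.3%) and 2 lower (19.2%). Between Longshu No.7 and LK99 (18.3%) 2 passed, 1 higher in Longshu No.7 (8.23%) and 1 lower (10.1%).

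Among the other pairs, 3 members passed between Black kingkong and Longshu No.7 (34.3% of all entries), with 2 higher (14.7%) and 1 lower (19.6%) in Black kingkong. Between Red beauty and Longshu No.7 (24% of all entries) 4 passed, 2 higher (10.3%) and 2 lower (13.7%) in Red beauty. Between Black kingkong and Red beauty (42.1%) 3 passed, 1 higher (20.3%) and 2 lower (21.8%) in Black kingkong. The pairs share libraries, so these counts are not independent of each other.

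The counts against LK99 changed without the third replicates. Without replicate 3 of Black kingkong, Red beauty and Longshu No.7, 9 members passed between Black kingkong and LK99 (8 higher, 1 lower in Black kingkong), where 32.5% of all entries passed. Between Red beauty and LK99 8 passed (6 higher, 2 lower in Red beauty), against 33.0% of all entries. Between Longshu No.7 and LK99 4 passed (3 higher, 1 lower in Longshu No.7), against 23.8% of all entries. With library sizes alone in place of TMM, both members between Black kingkong and LK99 were lower in Black kingkong (32.2% of all entries passed), and all 4 between Red beauty and LK99 were lower in Red beauty (36.5%). In the fit restricted to entries of 23 nt or longer, which changes the entries tested and the scaling together, 4 members passed between Black kingkong and LK99 (21.9% of all entries in that fit), and all 4 were lower in Black kingkong.

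For the most abundant members no difference passed. The level of miR7980-x was 45.7, 47.2 and 39.9 CPM in Black kingkong, 48.6, 32.5 and 37.2 in LK99, 31.9, 43.9 and 29.0 in Red beauty, and 45.1, 43.8 and 20.6 in Longshu No.7. The member that pairs with it, miR7980-y, measured 38.6, 38.1 and 27.6 CPM in Black kingkong, 35.5, 29.6 and 34.1 in LK99, 30.5, 34.9 and 24.9 in Red beauty, and 39.1, 34.3 and 19.9 in Longshu No.7. For both, every cultivar overlaps every other, and Longshu No.7 replicate 3 was the lowest of the 12 libraries. Their widest estimated difference was between Black kingkong and Red beauty, with a log2 fold change of 0.34 for miR7980-x (interval of 2 SE −0.30 to 0.98, adjusted p = 0.435) and 0.21 for miR7980-y (−0.38 to 0.80, adjusted p = 0.63). Since the first interval reaches close to 1 on the log2 scale, equal levels are not shown.

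With TMM scaling LK99 was lowest in miR8021-x and miR7984-x, and neither passed. The level of miR8021-x was 28.6, 30.7 and 28.6 CPM in Black kingkong, 23.1, 25.1 and 22.8 in LK99, 31.2, 30.0 and 33.0 in Red beauty, and 32.4, 35.2 and 28.4 in Longshu No.7. The level of miR7984-x was 29.2, 27.9 and 19.0 CPM in Black kingkong, 16.3, 16.8 and 15.4 in LK99, 27.5, 25.0 and 21.8 in Red beauty, and 27.3, 22.8 and 24.3 in Longshu No.7. In both, every LK99 library lay below every library of the other 3 cultivars, and without the TMM factors this separation was lost. Per 1e6 deposited counts miR8021-x was 31.7, 29.5 and 26.7 in LK99 and 27.8, 28.0 and 25.9 in Red beauty. On that scale miR7984-x was 22.4, 19.7 and 18.0 in LK99, above the lowest library of Black kingkong (16.5) and that of Red beauty (17.1). The log2 fold change of Black kingkong against LK99 was 0.31 for miR8021-x (interval −0.15 to 0.77, adjusted p = 0.327) and 0.65 for miR7984-x (0.14 to 1.17, adjusted p = 0.0716). Without the 3 replicate 3 libraries miR7984-x passed the test for any difference (adjusted p = 0.0277) and miR8021-x did not (0.177). Libraries of Black kingkong and LK99 did not overlap in 15 of the 34 tested members and in 49.5% of all tested entries.

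Over all 12 libraries and with the count filter, 26 tested members passed in no test, miR7980-x, miR7980-y, miR8021-x and miR7984-x among them. Their mean levels ran from that of stu-miR8021 (1.11 CPM) to that of miR7980-x (38.8 CPM). Without the 3 replicate 3 libraries, 7 of the 26 passed the test for any difference. In the fit of all libraries, over their 156 pairwise comparisons the median size of the log2 fold change was 0.34 and the largest 1.34, and 149 of the estimates were under 1. An interval of 2 SE reached 0.79 to either side at the median, so differences near 2-fold were often not detectable at this depth.

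Of the 68 untested members, 36 had 10 or more counts and 32 fewer, and 36 were counted in 6 or more libraries. With no count filter, 12 of all 102 members passed the test for any difference (24.3% of all entries passed in that fit), the 6 described above and 6 untested ones. The untested ones were stu-miR7987, stu-miR8005a, stu-miR8016, miR8014-y, stu-miR8011a-5p and stu-miR8019-3p. They are named because they passed there, after their values were seen.

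For stu-miR7987 the libraries of LK99 held 0 counts. It had 10, 5 and 7 counts in Red beauty, 3, 6 and 3 in Black kingkong and 2, 3 and 6 in Longshu No.7, so every library outside LK99 had at least 2. Against the floor of 3 counts over the cultivar, its level was at least 10.1-fold higher than in LK99 in Red beauty, at least 4.55-fold higher in Black kingkong and at least 4.56-fold higher in Longshu No.7. The adjusted p-values with no filter were 0.00014, 0.0079 and 0.012 in that order.

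A single cultivar held all 11 counts of stu-miR8005a, which had 4, 5 and 2 counts in the Black kingkong libraries and 0 in the other 9. Its level in Black kingkong was at least 4.17-fold higher than in LK99, at least 3.35-fold higher than in Longshu No.7 and at least 3.04-fold higher than in Red beauty by the same floor. With no filter the test for any difference gave an adjusted p of 0.006, but none of its differences between pairs of cultivars passed the threshold in that fit. Its variant miR8005-x, different at T15A and T17A, had 4 counts in all and 0 in Black kingkong.

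The last of these are miR8014-y and stu-miR8016. The variant miR8014-y had 28, 18 and 8 counts in Black kingkong, 7, 5 and 4 in LK99, 7, 5 and 6 in Red beauty, and 6, 8 and 6 in Longshu No.7. Its difference between Black kingkong and LK99 had an adjusted p of 0.032 with no filter. The potato-named stu-miR8016 had 27, 3 and 5 counts in LK99, and 0 to 6 in every other library. Its high count in LK99 was that of replicate 1, and the other LK99 libraries overlap those of the other cultivars.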

How the data were processed

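Small RNA libraries of 12 tuber samples (4 cultivars, 3 libraries each) were size-selected at 18 to 30 nt and sequenced on an Illumina instrument, per the labels' protocols. The authors deposited 1 table with the sequence, length, raw count per library and a scaled expression score of 7827 entries. Aligner, miRNA release, genome build and the rules behind the -x and -y names were not given in the sources used here. The deposited score column was not used in any test, because 1 library was scaled by a divisor far from the others.

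Entries with an equal sequence were merged to 1 member (9 sequences had several entries, and for stu-miR8008a and stu-miR8009, whose counts differed, the first was kept). Deposited counts were tested with edgeR 4.0.16 (limma 3.58.1, R 4.3.3). The fit used filterByExpr (min.count 10, min.total.count 15), TMM factors, the quasi-likelihood F-test over all 12 libraries with cultivar as the only term, and Benjamini-Hochberg adjustment over all 1349 tested entries at 0.05. The SE is the size of the log2 fold change divided by the square root of F, and intervals are 2 SE to either side. Bounds against a cultivar with 0 counts use a floor of 3 counts over its 3 libraries. They take the count of the higher cultivar as exact, so they cover neither its counting error nor the spread between libraries. Intervals for shares and for 1 to 3 counts are exact binomial at 95%, for counting error only. Total counts per library were 5605168 to 7354483. With the TMM factors 1 count is worth 0.121 to 0.217 CPM. The fit was tested on simulated data for Black kingkong against LK99, where 14% of 2-fold and 72.8% of 4-fold changes were recovered. Of the calls there, 3.84% were false. No libraries of a cultivar agreed within sampling noise.

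The members, lists and comparisons were chosen with earlier results of these data known. Members were named if they passed the threshold in the F-test or in a pair of cultivars, or were among the 5 with the highest mean level. The alternatives were other scalings (RLE factors, library sizes alone), DESeq2 1.42.0, other count filters, 1 entry per sequence, fits of 2 cultivars alone, a replicate block and leaving out each library. The fits without replicate 3 of 3 cultivars and with long entries alone were chosen after seeing the data.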

Additional observations from a re-analysis of the deposited data

How the results depend on the processing

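The 8 members that passed a test gave 360 alternative log2 fold changes between cultivars over 22 settings, of which 290 kept their direction and side of the threshold, 70 kept their direction and missed the threshold, and 0 changed direction. Of 121 alternative p-values for any difference, which have no direction, 117 kept their side and 4 missed the threshold. Over all entries, 794 differed among the cultivars, and 236 with at least 10 CPM in 3 libraries, 1903 with no filter and 112 with long entries alone, where fewer or more entries were tested. Leave-one-out fits gave 675 to 893. The 6 members that differed among the cultivars became 1 with at least 10 CPM (of 7 tested), 12 with no filter, 12 without replicate 3 of the 3 cultivars, and 5 to 10 when 1 library was left out, with 10 without Longshu No.7 replicate 3. Deviations of same-numbered libraries of different cultivars were weakly correlated (−0.072 to 0.147 over 18 pairs, median 0.0325). For libraries with other numbers the range was −0.12 to 0.076 over 36 pairs (median −0.012). Of the 12 libraries, 7 were closest to one with their own number. Whether the replicate numbers mark libraries handled together was not tested. With the replicate block 7 members passed, the 6 and miR7996-x.

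With at least 10 CPM only 7 members were tested, and of the called members only stu-miR7992-5p was among them. A smaller count by pair in that fit therefore does not show a lost call. By pair, the 2 members between Black kingkong and LK99 became 1 with 1 entry per sequence, which was lower in Black kingkong. With at least 10 CPM neither of the 2 was tested, and 1 other member passed, higher in Black kingkong. The count was 4 with no filter, with long entries alone or with these cultivars alone, and 9 without replicate 3 of the 3 cultivars. In leave-one-out fits it was 1 to 10, the 10 without Longshu No.7 replicate 3. The 3 between Black kingkong and Longshu No.7 became 0 with at least 10 CPM, where none of the 3 was tested. They ranged from 2 to 5 in leave-one-out fits, the 5 without Longshu No.7 replicate 3. The 3 between Black kingkong and Red beauty became 1 with 1 entry per sequence, at least 10 CPM, DESeq2 or no filter, 5 with these cultivars alone, and ranged from 1 to 3 in leave-one-out fits. The 2 between Longshu No.7 and LK99 became 0 with at least 10 CPM, where neither of the 2 was tested. They became 4 with no filter, 1 with these cultivars alone and 4 without replicate 3 of the 3 cultivars. In leave-one-out fits they ranged from 1 to 4. The 3 between Red beauty and LK99 became 6 with no filter, 8 without replicate 3 of the 3 cultivars, and ranged from 2 to 6 in leave-one-out fits. The 4 between Red beauty and Longshu No.7 became 1 with at least 10 CPM, 2 with these cultivars alone, and ranged from 2 to 5 in leave-one-out fits. The cause of the other shifts was not tested.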
